A study of Mus musculus with 2 samples.

Results

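The Slitrk and Lrrtm genes encode cell-surface proteins with leucine-rich repeats that help nerve cells form and organise synapses. The 6 Slitrk genes and the 4 Lrrtm genes were looked up in a list of 2741 peaks of cJUN, a DNA-binding subunit of the transcription factor AP-1. A peak was taken where its listed nearest genes, at most 2 per peak for these genes, included one of the 10. This gave 21 of the 2741 peaks (0.766%), listed at 7 of the 10 genes. The members and the peaks were thus chosen from the listing itself, so their numbers are given as a description, with no test.

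The peaks came from chromatin immunoprecipitation and sequencing of whole intestines of wild type C57BL/6 mouse embryos at E14.5. Intestines from 1 litter of 8 embryos were kept for 24 h in a transwell culture, and the chromatin was sheared to about 500 bp. There were 2 libraries, 1 made with a rabbit polyclonal antibody to cJUN and 1 of input DNA that had no antibody step. With 1 library per group there is no replicate error, and the read depth of the libraries is unknown. The organ was used whole, so the cell type in which a site was bound cannot be told. Expression of the Slitrk and Lrrtm genes was not measured in these libraries.

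Slitrk proteins carry an outer part that resembles the Slit guidance proteins and an inner part with some likeness to the Trk neurotrophin receptors. On the postsynaptic side they bind receptor tyrosine phosphatases of the LAR type on the axon. Lrrtm proteins act from the postsynaptic side of excitatory synapses, where they bind neurexins, and some bind heparan sulfate proteoglycans such as glypicans. In the gut, nerve cells come from the neural crest and form the enteric nervous system. The genes of the Slitrk family are short and many stand alone in wide stretches without other genes, while Lrrtm1, Lrrtm2 and Lrrtm3 lie inside genes of the alpha-catenins, which link cadherins to actin.

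Peaks that listed a member were mostly far from it. Across the 23 listings of a member (2 peaks listed 2 members each), the median distance was 721.4 kb, with a range from 20.9 to 953.2 kb. The median over all listings of all genes was 144.3 kb. Of the 23 distances, 16 (69.6%) were beyond 500 kb, against 16.4% of all listings, and 2 were within 100 kb, against 41.7% of all. A listed gene lay at most 998.4 kb from its peak in the whole list, with 1 exception among 4694 distances, so the listing stopped at about 1 Mb. The sign of a distance was read from the genes themselves. In 663 of 668 genes (99.3%) that could be placed from 2 or more peaks and had a strand in the RefSeq promoter table, a positive distance was downstream of the start site and a negative one upstream. On this reading 14 of the 23 member listings were downstream and 9 upstream, where 51.9% of all listings were downstream.

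**Figure D1:**
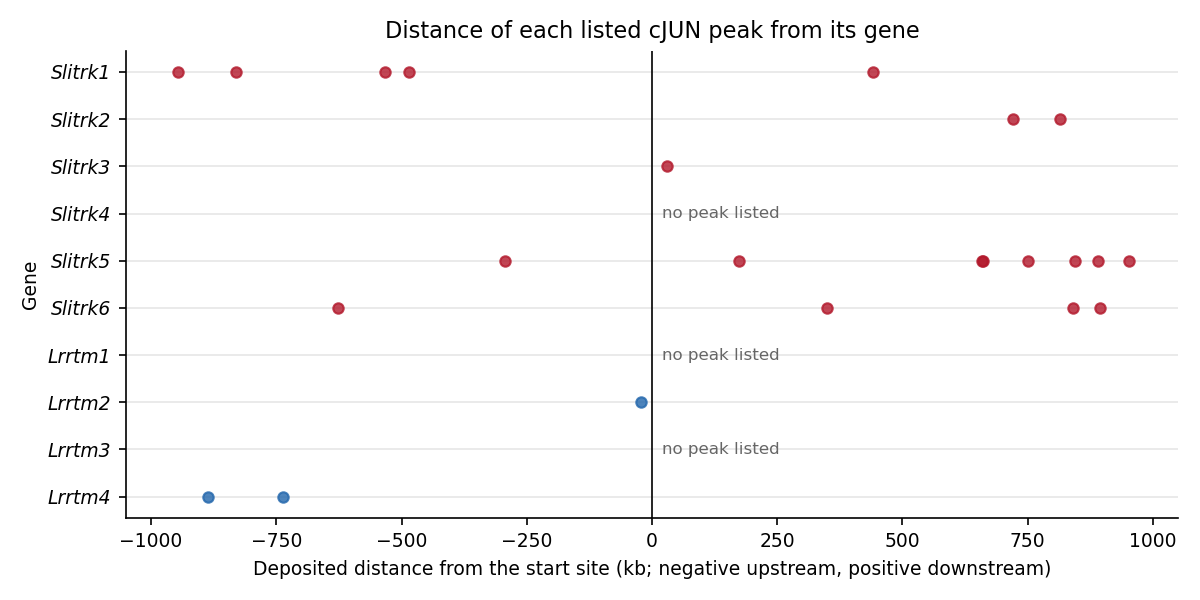
Each point is 1 listed cJUN peak, placed by the deposited distance from the start site of the gene named on the vertical axis, in kb, with negative values upstream and positive values downstream. Red points are Slitrk genes and blue points Lrrtm genes. Only the peaks at Slitrk3 (30.82 kb) and Lrrtm2 (20.9 kb) lie within 100 kb of the gene, and 3 genes have no listed peak.

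By family, 5 of 6 Slitrk genes were listed at 18 peaks and 2 of 4 Lrrtm genes at 3 peaks. Of all 21900 protein-coding genes in the RefSeq table, 12.5% were listed at a peak. Slitrk5 had 8 peaks, Slitrk1 had 5, Slitrk6 had 4, Slitrk2 and Lrrtm4 had 2 each, and Slitrk3 and Lrrtm2 had 1 each. Slitrk4, Lrrtm1 and Lrrtm3 had none. A count of 4 or more, as at Slitrk1, Slitrk5 and Slitrk6, was found for 0.566% of protein-coding genes, and nothing is read from that share, since the listing chose the peaks. Within 100 kb of a gene, 2 of the 10 members had a peak, against 6.83% of protein-coding genes. The member was the nearest listed gene at 15 of the 21 peaks and 6 of the 10 members were the nearest gene of some peak, against 7.61% of protein-coding genes. A member was the only listed gene at 7 peaks (33.3%, against 21.1% of all peaks).

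Of the 21 peaks, 15 (71.4%) were on chromosome 14, which held 147 (5.36%) of all peaks. There Slitrk1, Slitrk6 and Slitrk5 follow each other with no other protein-coding gene between them in RefSeq. Their start sites, inferred from the deposited distances on mm9, were at 109313456 for Slitrk1, 111154370 for Slitrk6 and 112074336 for Slitrk5, so the outer pair lay 2.761 Mb apart. All coordinates of peaks are on mm9 as deposited.

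Slitrk5, whose loss in mice has been tied to obsessive-like grooming, had the most peaks. The nearest was at chr14:112248657-112248757, 174.4 kb downstream, with a fold over background of 24.62 and a score of 67.86, where the score is the authors' −log10 p multiplied by 10. It was 100 bp long and listed no other gene. Upstream there was 1 peak, chr14:111780902-111781057 at 293.4 kb, with a fold of 14.74 and score of 57.13. It also listed Slitrk6 at 626.6 kb.

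The other 6 peaks of Slitrk5 formed a run downstream of the gene, and each of them also listed Tpm3-rs7, which RefSeq gives as a pseudogene. The run began with a pair of peaks 695 bp apart. Of these, chr14:112734163-112734302 lay 659.9 kb from Slitrk5 with a fold of 16.3 and score of 56.7. Its neighbour chr14:112734997-112735126 was at 660.7 kb with a fold of 18.15 and score of 67.23. The pair was thus closer together than any other neighbouring member peaks. Next came chr14:112825562-112825643 at 751.3 kb, which was the shortest member peak at 81 bp, with a fold of 13.3 and score of 67.5. The peak chr14:112918039-112918184 at 843.8 kb had the lowest fold of all member peaks, 8.57, with a score of 61.78. Beyond it the folds were higher again. The peak chr14:112965638-112965782 at 891.4 kb had a fold of 18.42 and score of 59.47. The last, chr14:113027467-113027630 at 953.2 kb, had a fold of 14.74 and score of 65.91. The first 3 of the 6 were nearer to Slitrk5 and the last 3 nearer to Tpm3-rs7.

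Slitrk1, a member expressed in developing brain and studied in human tic disorders, had 5 peaks, of which 4 were upstream, towards Slitrk6. The downstream peak was chr14:108872346-108872510 at 441.0 kb, with a fold of 18.42 and score of 65.69. Upstream, chr14:109798817-109798939 at 485.4 kb had a fold of 18.42 and score of 64.8, and 46.95 kb farther on chr14:109845891-109846016 at 532.5 kb had a fold of 14.66 and score of 56.7. These peaks listed Slitrk1 alone. The same held for chr14:110143989-110144132 at 830.6 kb, with a fold of 18.42 and score of 59.7.

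The strongest of the 21 peaks lay between Slitrk1 and Slitrk6 and listed both. This peak, chr14:110259259-110259422, had a fold of 25.79 and score of 87.96, which ranked 196 of 2741 by score. It was 945.9 kb upstream of Slitrk1 and 895.0 kb downstream of Slitrk6, and its summit was given at 37 bp from its start. Another peak lay 55.16 kb from it, at chr14:110314584-110314707, 839.7 kb downstream of Slitrk6, with a fold of 18.42 and score of 64.54. It was 1001.2 kb from the start of Slitrk1, just past the listing limit, and did not list that gene. Slitrk6, needed in mice for the nerve supply of the inner ear, had its nearest peak at chr14:110804916-110805059, 349.4 kb downstream, with a fold of 14.74 and score of 59.7. In the other direction the peak chr14:110143989-110144132, listed at Slitrk1, was 1010.3 kb from Slitrk6 and likewise just outside the limit.

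**Figure D2:**
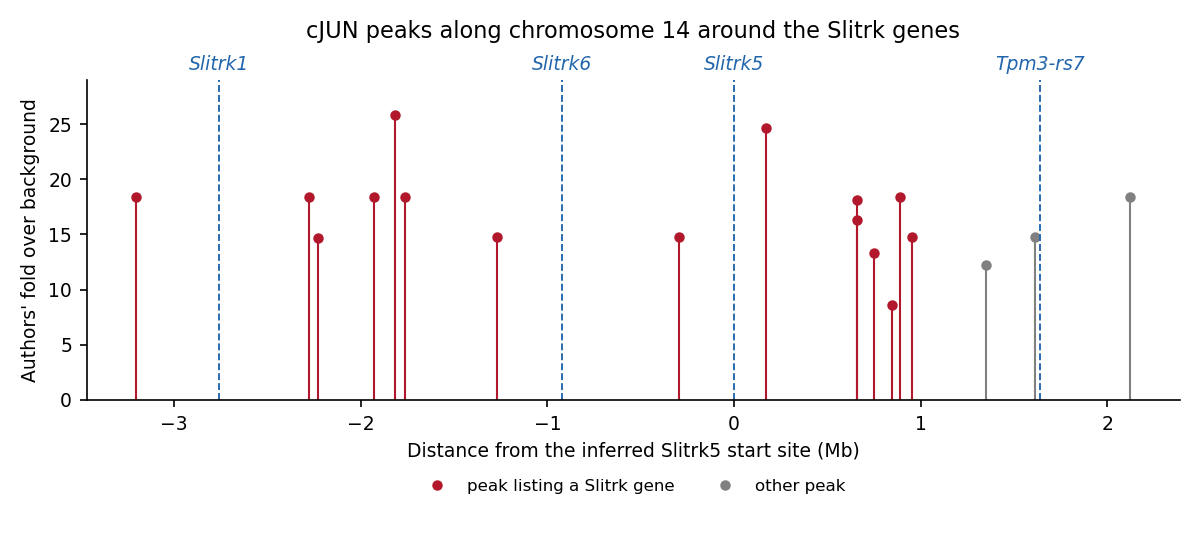
cJUN peaks on chromosome 14 are drawn by their distance in Mb from the inferred start site of Slitrk5 (horizontal) and the authors' fold over background (vertical), with dashed lines at the inferred start sites of the named genes. Red peaks list a Slitrk gene and grey peaks do not. A run of 6 red peaks stands between Slitrk5 and Tpm3-rs7, and the highest fold, 25.79, lies between Slitrk1 and Slitrk6.

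Positions along the chromosome were described by runs, taken as 2 or more member peaks with gaps of at most 100 kb. There were 4 runs, and they held 12 of the 21 member peaks (57.1%). Of all 2741 peaks, 901 (32.9%) were in such runs. Member peaks were chosen for listing the same few genes, some of them neighbours, so part of their closeness follows from the choice. The difference between these shares was not tested, and nothing is read from it. The run at Slitrk5 and Tpm3-rs7 held 6 peaks over 293.47 kb, and the other 3 runs held 2 peaks each. These lay upstream of Slitrk1 over 47.2 kb, between Slitrk1 and Slitrk6 over 55.45 kb, and at Slitrk2 over 92.48 kb. Runs of 6 or more peaks were found 11 times in the whole list. Among these 11 the run at Slitrk5 had the highest median fold, 15.52, with a median score of 63.84. This fold was still below the median over all peaks, 16.75. The next of the 11 by median fold was the run of 7 peaks led by Atg7, with 14.97, and the lowest was 5.1. By median score the run at Slitrk5 was not the highest of the 11. The runs led by Lrp11, Ezh2, 4933400A11Rik and Snrpn had higher median scores of 272.18, 82.91, 80.41 and 65.31. The run at Slitrk5 was broken by leaving out the peak with a fold under 10, or peaks with a score under 60, and in each case the longest run of member peaks was then 3.

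A wide stretch can hold more peaks, so peaks were also counted per Mb between the start sites of the listed pair of neighbours. Between Slitrk5 and Tpm3-rs7, 1.639 Mb apart, there were 9 peaks, or 5.49 per Mb. The whole list had 1.076 peaks per Mb and chromosome 14 had 1.203. Of the 9 peaks, 7 listed Slitrk5 and the others, chr14:113424151-113424301 and chr14:113684781-113684928, listed Tpm3-rs7 alone, at 1349.9 and 1610.5 kb from Slitrk5. Among the 108 gaps of at least 1 Mb that could be placed in the whole list, this was the highest density, ahead of 4.88 per Mb between Mageb16 and Tmem47. With only peaks of a score of at least 60 it ranked 2 of the 108, at 3.05 per Mb. The median of those gaps, with all peaks, was 1.72. Each such gap holds at least 1 peak by the way it was found. The limit of 1 Mb was not varied. The median width of all 1090 placed gaps was 0.273 Mb, and in a narrow gap even 1 peak gives a high density. Many narrower gaps were denser, among them that from Sis to Slitrk3, with 1 peak in 0.089 Mb, or 11.23 per Mb. Between Srsx and Vmn2r121, 0.913 Mb apart, there were 13.14 peaks per Mb, and between Ube3a and Snrpn, 0.801 Mb apart, 28.71. With the next protein-coding gene, Gpc5, as the end in place of the pseudogene, the gap from Slitrk5 was 3.417 Mb wide. It held 11 peaks, or 3.22 per Mb. Between Slitrk1 and Slitrk6 there were 6 peaks in 1.841 Mb, or 3.26 per Mb, which ranked 13 of the 108. Between Slitrk6 and Slitrk5 there was 1 peak in 0.92 Mb, or 1.09 per Mb, close to the density of the whole list. The gaps from Slitrk5 to Tpm3-rs7 and from Slitrk1 to Slitrk6 were thus denser than the whole list and than the median of 1.72. Gaps between listed neighbours were placed only where a peak listed both genes, which the density of the whole list does not require. The 1 peak between Slitrk6 and Slitrk5 is the fewest that such a gap can hold. The differences between these gaps were not tested, and nothing is read from them.

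**Figure D3:**
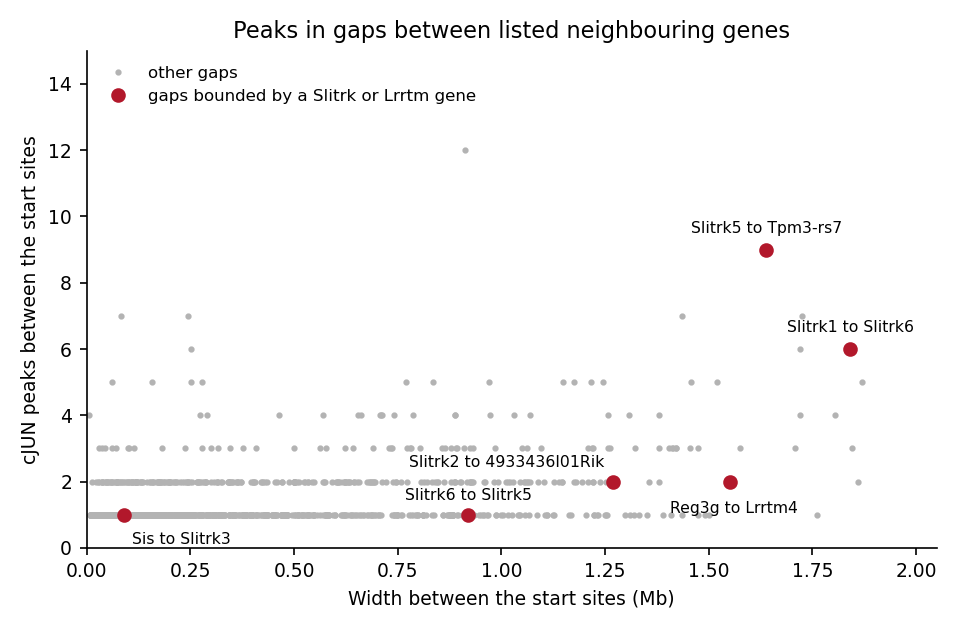
Each point is a stretch between the inferred start sites of the genes listed together at a peak, with its width in Mb (horizontal) and the number of cJUN peaks inside it (vertical). Red points are bounded by a Slitrk or Lrrtm gene, and 3 other gaps with more than 12 peaks lie outside the plot. The gap from Slitrk5 to Tpm3-rs7 holds 9 peaks and that from Slitrk1 to Slitrk6 holds 6.

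The remaining Slitrk genes lay on chromosomes X and 3. Slitrk2, an X-linked member, had 2 peaks downstream, and both were nearer to 4933436I01Rik. The peak chrX:64627524-64627697, at 721.4 kb from Slitrk2 and 547.0 kb from 4933436I01Rik, was the longest member peak at 173 bp, with a fold of 16.89 and score of 63.71. The second, chrX:64719862-64720008 at 813.8 kb, had a fold of 14.66 and the lowest score of the member peaks, 51.82. The gap between these genes was 1.268 Mb wide and held these 2 peaks, or 1.58 per Mb. On the other side of Slitrk2, 4 peaks lay between 512.2 and 984.5 kb from its inferred start and did not list it. They listed 4930447F04Rik or Ctag2, and the nearest of them, chrX:63393902-63394074, had a fold of 22.11 and score of 74.58. Slitrk4, the other X-linked member, was not listed at a peak. Its neighbour Ctag2 was listed at 3 of them, and its neighbour on the other side, 3830417A13Rik, at none.

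Slitrk3, which organises inhibitory synapses through the phosphatase Ptprd, had 1 peak and this was close by. The peak chr3:72829965-72830117 lay 30.82 kb downstream of Slitrk3 and 58.26 kb from Sis, the sucrase-isomaltase gene of the intestinal brush border. Its fold was 14.74 and its score 68.42. Sis was listed at 3 peaks in all. The next peak towards Sis, chr3:72079911-72080067, was 780.9 kb from Slitrk3 and listed Sis alone.

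Of the Lrrtm genes, Lrrtm2 had the shortest distance of all members. Its peak chr18:35395519-35395644 lay 20.9 kb upstream, with a fold of 14.66 and score of 56.7, and also listed Sil1, a gene of the endoplasmic reticulum chaperone system, at 263.0 kb. Its score was in the low part of the list, at percentile 15.7. Lrrtm4, which binds glypicans, had 2 peaks upstream, between it and Reg3g, a gene for an antibacterial lectin of the gut epithelium. The peak chr6:79082481-79082598 at 886.3 kb had a fold of 20.1 and score of 74.47, second among the member peaks by score, and was nearer to Reg3g at 663.7 kb. The peak chr6:79232022-79232159 at 736.8 kb had a fold of 13.4 and score of 58.03, and was nearer to Lrrtm4. These 2 peaks were 149.42 kb apart in a gap of 1.55 Mb, or 1.29 per Mb.

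Lrrtm1 and Lrrtm3 were not listed. Ctnna2, which holds Lrrtm1, and Ctnna1, which holds Lrrtm2, were listed at no peak. Ctnna3, which holds Lrrtm3, was listed at 1, chr10:63239617-63239751, at 346.8 kb with a fold of 18.42 and score of 61.78. That peak listed Ctnna3 with another gene and not Lrrtm3. The listed genes are named nearest by the authors, and how they were assigned is not given. A peak near a member can be listed at other genes alone, as were those 512.2 to 984.5 kb from Slitrk2. The lack of a listing is thus not a lack of peaks within 1 Mb.

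In strength the 21 peaks lay within the bulk of the list. Their median fold was 16.3, with quartiles of 14.66 and 18.42, against a median of 16.75 and quartiles of 14.07 and 18.42 over all peaks. Their median score was 63.71, against 61.3 over all peaks. The whole list had a lowest score of 50.01 and a lower quartile of 57.34, and the member peaks began at 51.82. Scores of at least 60 were reached by 12 of 21 (57.1%), against 56.0% of all. None reached 100, where 127 of all 2741 peaks did. The median length was 143 bp, against 149 bp over all peaks. A fold under 10 was found at 1 of the 21 peaks, against 12.1% of all.

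**Figure D4:**
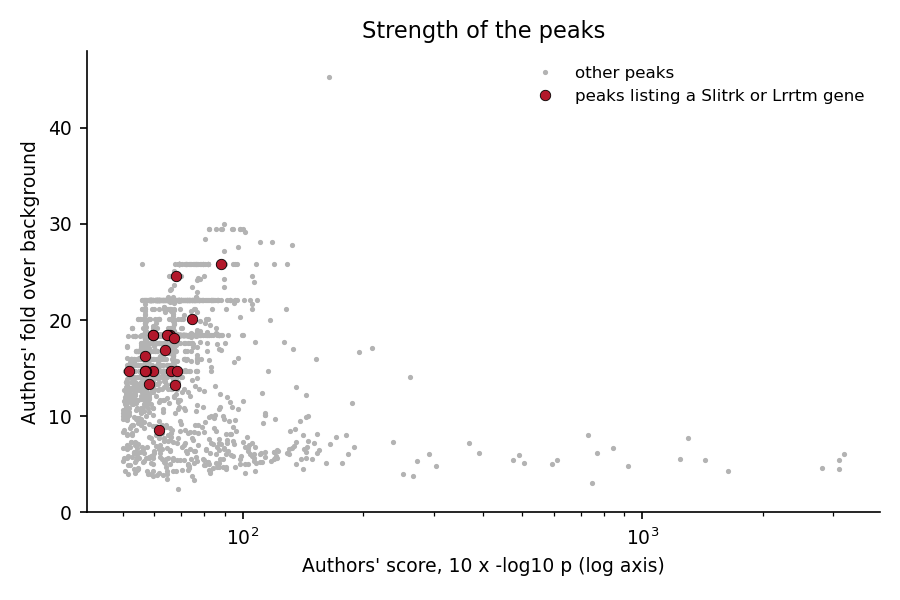
Every peak of the list is shown by the authors' score, 10 times −log10 p on a log axis (horizontal), and the authors' fold over background (vertical). Red points list a Slitrk or Lrrtm gene. They have scores of 51.82 to 87.96 and folds of 8.57 to 25.79.

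The nearest listed peak was 20.9 kb from the start of a member, so none lay at a member's promoter. The promoter windows were read for the letters of AP-1 motifs, from 250 bases before to 50 after the start, as RefSeq gives them on GRCm38.p6 for 8 of the 10 members in 10 windows. The motifs were TGANTCA, an AP-1 site with any base in the middle, and TGACGTCA, the related site of cAMP response elements. Both read the same on both strands, and they do not overlap as written. With any middle base, TGANTCA is looser than the classic AP-1 site. TGANTCA was in 1 of the 10 windows, against 7.81% of all 32851, and TGACGTCA in 1, against 1.79%. Shown are both windows with a match, with the match in capitals, and that of Slitrk5, the member with the most peaks, which had none. The Slitrk6 window is chr14:110755100-110755399 on the minus strand, and its match begins 18 bases before the start. The Slitrk2 window is chrX:66652909-66653208 on the plus strand, and its match begins 197 bases before the start. The Slitrk5 window is chr14:111675777-111676076 on the plus strand. All are on GRCm38.p6, and a match of letters is not a bound site.
Slitrk6: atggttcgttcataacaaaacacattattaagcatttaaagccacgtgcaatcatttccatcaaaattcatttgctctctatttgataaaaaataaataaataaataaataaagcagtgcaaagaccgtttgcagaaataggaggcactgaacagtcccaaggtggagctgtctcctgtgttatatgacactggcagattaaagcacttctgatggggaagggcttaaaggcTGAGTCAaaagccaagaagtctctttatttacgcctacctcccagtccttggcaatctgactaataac
Slitrk2: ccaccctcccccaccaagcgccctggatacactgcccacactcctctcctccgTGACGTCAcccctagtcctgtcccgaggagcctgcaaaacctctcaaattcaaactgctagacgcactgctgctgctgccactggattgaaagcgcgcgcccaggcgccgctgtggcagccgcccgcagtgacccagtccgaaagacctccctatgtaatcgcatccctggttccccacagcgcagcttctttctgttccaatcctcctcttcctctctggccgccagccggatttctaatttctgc
Slitrk5: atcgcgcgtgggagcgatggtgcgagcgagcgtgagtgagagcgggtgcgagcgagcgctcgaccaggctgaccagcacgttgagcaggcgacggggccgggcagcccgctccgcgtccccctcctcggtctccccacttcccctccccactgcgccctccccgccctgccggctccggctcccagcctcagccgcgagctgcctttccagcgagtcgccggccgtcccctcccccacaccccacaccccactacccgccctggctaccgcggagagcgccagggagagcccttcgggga

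Partners and relatives of the members were counted in the same way. Of 70 such genes, 23 were listed at a peak (32.9%), against 12.5% of protein-coding genes. Within 100 kb of the listed gene, 8 of the 70 had a peak, against 6.83% of protein-coding genes. The groups were chosen with earlier results of these data known. The differences were not tested, and nothing is read from them. None of the 3 LAR-type phosphatase genes Ptprd, Ptprs and Ptprf, the 3 neurexin genes or the 3 neuroligin genes was listed. Of the 6 glypican genes, 2 were listed, and both follow Slitrk5 on chromosome 14. These were Gpc5 with 2 peaks, the higher-scoring 579.5 kb away, and Gpc6 with 3, the highest-scoring 9.3 kb away with a fold of 20.03 and score of 67.23.

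Among the other leucine-rich repeat adhesion genes, 6 of 24 were listed. Lrrn3 had 1 peak 29.4 kb away with a fold of 10.12 and score of 85.25. Lrrc4c, whose product binds netrin-G1, had 4 peaks, the strongest by score 293.6 kb away with a fold of 14.74 and score of 73.89. Lingo2 also had 4, led by one at 24.6 kb with a score of 61.3, and Flrt2 had 1 at 327.7 kb with a score of 58.82. Among other synaptic organisers, 12 of 21 were listed. They included all 3 latrophilin genes, listed under the older symbols Lphn1, Lphn2 and Lphn3. Their leading peaks scored 143.53 at 143.2 kb for Lphn1, 67.23 at 155.7 kb for Lphn2 and 110.32 at 809.0 kb for Lphn3. The folds of these peaks were 12.17, 25.12 and 5.22 in the same order. The teneurin gene Tenm2 had a leading peak with a score of 76.12 at 814.0 kb, and Il1rapl1, a ligand of LAR-type phosphatases, with 74.63 at 777.1 kb. Of the Slit and Robo genes, 2 of 7 were listed. Slit2, a guidance ligand gene, had a peak 827.0 kb away with a fold of 25.79 and score of 95.28, and its receptor gene Robo2 had 3 peaks, the leading one at 141.7 kb with a score of 60.15.

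By number of listed peaks, the genes most like Slitrk5 with its 8 were Tbl1xr1, Atg7, Atp10a and Adam29, each also listed at 8 peaks. Among the genes that differed from it by 1 peak, which include Tpm3-rs7 with 9, Gm10800 with 7 had the highest score. Their median distances differed, at 665.1 kb for Tbl1xr1, 77.2 kb for Atg7, 548.8 kb for Atp10a, 395.9 kb for Adam29 and 4.7 kb for Gm10800. Slitrk5 had a median distance of 706.0 kb.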

How the data were processed

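Peaks of 1 cJUN immunoprecipitate against 1 input were deposited by the authors as 1 table. The submitters' processing notes name Bowtie 1.1.0, MACS 1.4 and mm9. Settings, and how genes were assigned to peaks, are not given in the sources used here. As deposited, the fold is a ratio of immunoprecipitate over background, and the deposited score is 10 times −log10 of the caller's p-value, per the file headers. Both are the authors' values for each peak and served only to describe and rank peaks in this list. How reads in repeated sequence were treated can change which peaks were called.

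Members and lists were chosen with earlier results of these data known. Every member, its peaks and its co-listed genes were named, with up to 4 genes of each partner group by score. Lphn2 was named in addition, beside the other latrophilin genes. Genes compared by density or run were chosen after their values were seen. Start sites were inferred from peak midpoints and signed distances to within 1.5 bp (927 of 935 genes at 2 or more peaks), or from the RefSeq strand for 1 peak. Lrrtm2 could not be placed. The inference and the runs were tested on simulated data. RefSeq GRCm38.p6 gave names, neighbours and promoters. A list of enteric neuron and glia markers is not reported here. Python 3.11.15 and pandas 2.3.3 were used.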

Additional observations from a re-analysis of the deposited data

How the results depend on the processing

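Over 9 other settings, 35 values were recomputed, and 24 of them were kept. Kept meant within 1.5 times the reported count. For the median distance it meant within the exact binomial 95% interval over the listings, 485.4 to 839.7 kb. Listings are not independent replicates, since many come from the same stretch of chromosome 14. The interval therefore measures no error and served only as a yardstick. With only peaks of a score of at least 100, no member kept a peak (0 peaks, 0 members, 0 runs), 2 partner genes did, and a median distance could not be had. With a score of at least 60 there were 12 peaks, 2 runs, and 1.505 peaks per Mb between the listed genes, where 2.874 were reported. The whole list then had 0.603 per Mb in place of 1.076, since fewer peaks were counted. The gap from Slitrk5 to Tpm3-rs7 held 5 peaks at that setting and ranked 2 of 108 by density, and it ranked 1 with a fold of at least 10 and with peaks within 1 kb counted once. Within 500 kb of the listed gene 7 peaks were left, and within 100 kb 2 peaks, 2 members and 8 partner genes, which follows from the limit. No paired analysis was possible because each group has 1 library. The depth of the libraries is unknown.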

Other observations

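Some of the authors' folds were shared by many peaks. The 3 most frequent, 14.74, 18.42 and 22.11, were 3.68 and 3.69 apart and were given to 438, 653 and 279 of the 2741 peaks. Of the 21 peaks at Slitrk and Lrrtm genes, 9 (42.9%) had one of these folds, 4 of them 14.74 and 5 of them 18.42, against 50% of all peaks. Peaks with the same fold are tied in any order by fold.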
